A study of Mus musculus with 10 samples.

Results

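The genes described here are 36 genes of sterol and fatty acid synthesis, out of 25233 entries with a gene symbol in the expression table. They were chosen by function, not by a cutoff on measured values, but with earlier results of these data known. They form a mevalonate and sterol arm of 24 genes (18 enzymes, 5 regulators and the sterol carrier *Stard4*) and a fatty acid arm of 12 genes. All 36 had a row in the table and all 36 passed the filter on low values, which asked for 10 normalized counts or more in 5 or more of the 10 libraries and kept 14630 genes. *Acacb* passed through the qHSC libraries only, so its difference between groups is partly fixed by the filter.

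RNA was sequenced from hepatic stellate cells, the vitamin A-storing cells of the liver, sorted from male C57BL/6J mice. Hypertrophied stellate cells (hypHSC, n = 5 preparations) came from mice on CDAHFD, a high-fat diet lacking choline on which the liver becomes fatty and fibrotic, and quiescent stellate cells (qHSC, n = 5) from mice on a standard diet. hypHSC 1 and 2 were taken after 13 weeks of diet at 19 weeks of age and hypHSC 3, 4 and 5 after 12 weeks at 18 weeks of age, whereas qHSC 1, 2 and 5 were from mice of 36 weeks and qHSC 3 and 4 from mice of 34 weeks. hypHSC were sorted on green droplet fluorescence and qHSC on blue. By the paper's methods, CDAHFD livers were also digested with more enzyme and for longer, with antibiotics added to most buffers. Diet, age, cell preparation and sorting gate therefore changed together and cannot be told apart. No allele or transgene was used, and the labels do not say whether a preparation came from 1 mouse or several. The paper reports selecting the hypHSC preparations by highest RNA integrity, from more samples than mice, and the qHSC preparations were selected too. Whether any preparations shared a mouse is not given. Every p-value below measures the spread between these preparations, which need not be the spread between mice.

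Cholesterol synthesis builds isoprenoid units from acetyl-CoA through mevalonate, joins them into squalene, closes squalene to lanosterol and trims the ring to cholesterol. Fatty acid synthesis starts from the same acetyl-CoA, made in the cytosol from citrate or acetate, and yields palmitate, which elongases lengthen and desaturases unsaturate. Both pathways are driven by SREBP transcription factors, which SCAP escorts to the Golgi for cleavage and INSIG proteins hold back in the endoplasmic reticulum when sterols are plentiful. In the liver the fatty acid arm is also raised by insulin and by carbohydrate feeding.

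The libraries held 30534719 to 43283589 reads on symbol genes in hypHSC and 35640104 to 47317028 in qHSC. Mitochondrial entries took 2.21% to 12.8% of reads in hypHSC and 1.25% to 1.61% in qHSC. The labelled cell type was checked against marker genes. The stellate cell markers were lower in hypHSC for 14 of 14 genes, with a summed level of 31795 to 63445 normalized counts against 1270944 to 2122009 in qHSC, and the 2 most abundant, *Ecm1* and *Dcn*, were at 794 to 10875 and at 16456 to 39405 in hypHSC. Macrophage markers were higher for 14 of 16 genes, with a summed level of 1141841 to 1482265 in hypHSC against 5997 to 89442 in qHSC, led by the lysozyme gene *Lyz2* (740305 to 940344 against 1264 to 30968) and *Cd68* (115258 to 196974 against 332 to 7893). By these 2 lists the libraries labelled hypHSC go against their cell type label. Among qHSC, libraries 1 and 4 held the most macrophage markers, 38647 and 89442. Kupffer cell markers were higher for 3 of 6 genes and lower for 1 (none higher and 2 lower under DESeq2), summed to 18424 to 33259.6 against 4636 to 51856, and were led by *Cd5l* and *Clec4f*, and hepatocyte markers (15 genes, 1 lower, none higher) summed to 93266 in hypHSC 4 and 235074 in hypHSC 5 but 14791 to 38908 in hypHSC 1, 2 and 3 and 30555 to 118285 in qHSC, with *Apoa2* and *Apoa1* the most abundant. Endothelial markers (9 tested, 2 higher and 4 lower, *Clec4g* and *Egfl7* the most abundant) summed to 762 to 1285 in hypHSC and 1657 to 3082 in qHSC. Lymphocyte markers (4 tested, 1 higher, *Cd79b*, with *Nkg7* next in abundance) summed to 264 to 825 and 10.2 to 201. Cholangiocyte markers (4 tested, 4 higher) summed to 161384 to 336721 and 31.7 to 387, of which *Spp1* held 160907 to 335921 and 1.71 to 382. *Sox9* was next at 146 to 1244 and 4.72 to 37.1, so the hypHSC sum is nearly that of *Spp1* alone and does not describe the list as a whole. The other genes called in that list, *Krt19* and *Epcam*, passed the filter through the hypHSC libraries, so their calls were partly fixed by it. In bulk RNA, fewer cells of a type and less RNA per cell cannot be told apart, and the part of this marker difference in the results below was not tested.

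Over all genes, 5779 of 14630 tested were called by limma (called means a log2 fold change of 1 or more in size together with a Benjamini-Hochberg adjusted p no greater than 0.05), which is 39.5%. Calls higher in hypHSC made up 17.8% and calls lower 21.7%, and the median log2 fold change of all genes tested was -0.20. Against that background, 15 of the 36 synthesis genes were called, or 41.7%, with 9 higher and 6 lower and a median of 0.05. The calls of the arms pointed in different directions. Of the 24 sterol arm genes 9 were higher (37.5%) and 1 lower (4.17%), with a median of 0.69, and of the 12 fatty acid arm genes none was higher and 5 were lower (41.7%), with a median of -0.95. The ranges of the 2 groups were separate for 10 of 24 sterol arm genes and 4 of 12 fatty acid arm genes, or 41.7% and 33.3%, beside 39.5% of all genes tested. The fatty acid arm counts of lower calls and of separate ranges include *Acacb*, whose difference is partly fixed by the filter. Without qHSC 1 and 4, the libraries with the most macrophage markers in their group, 9 sterol arm genes were called higher and none lower, and 4 fatty acid arm genes lower. In that fit 2391 of all 14630 genes tested were called higher and 2483 lower. When libraries were scaled on *Hprt*, *Pgk1* and *Actb* instead, the median of all genes was -1.12, that of the sterol arm -0.25 and that of the fatty acid arm -1.89, with 3 sterol genes higher, 5 lower and 9 fatty acid genes lower. As deposited, *Hprt* (log2 fold change 1.25) and *Pgk1* (1.44) were themselves called higher and *Actb* was not called (0.12).

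**Figure D1:**
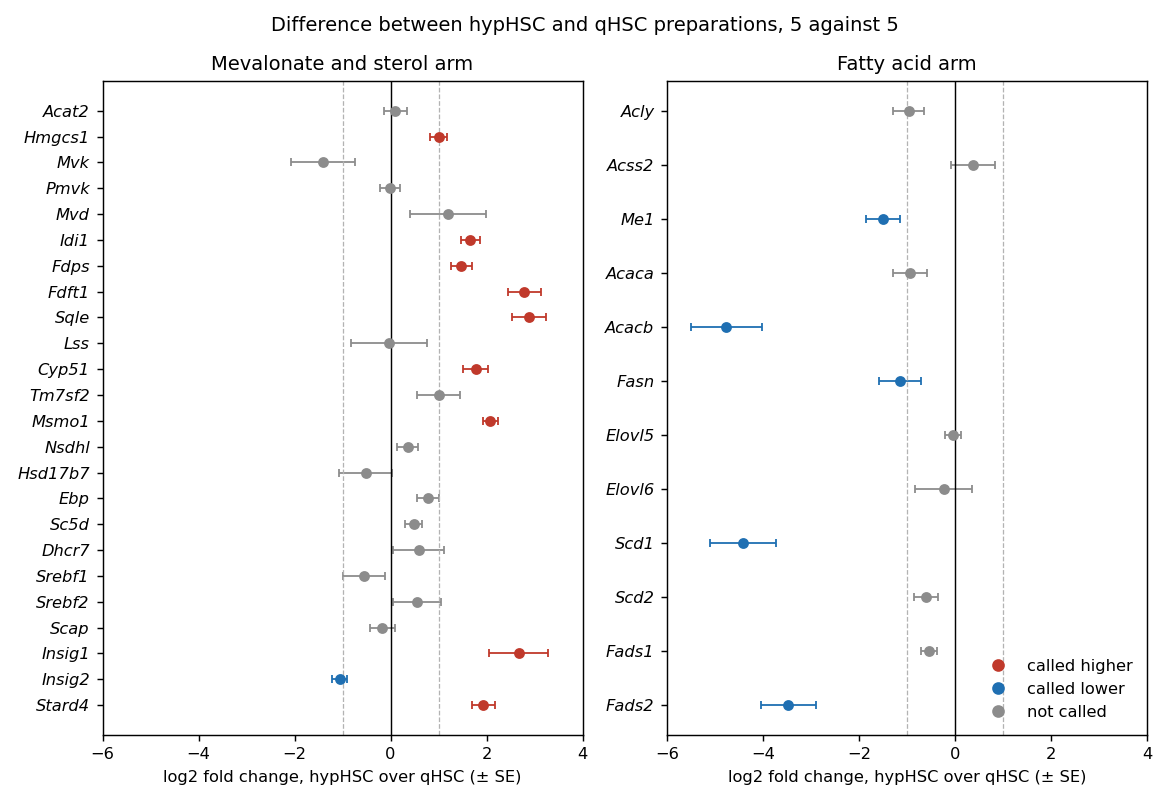
Log2 fold change of hypHSC over qHSC (x axis, points with SE as bars, n = 5 against 5) for each gene in pathway order, the mevalonate and sterol arm on the left and the fatty acid arm on the right. Red points are called higher and blue points lower, dashed lines mark the threshold of 1, and the 9 red points all lie in the sterol arm, whereas 5 of the 6 blue points lie in the fatty acid arm.

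Within the sterol arm the early mevalonate steps held 3 of 7 genes called higher, the squalene and lanosterol steps 2 of 3 and the sterol ring steps 2 of 8, and no enzyme was called lower. The called enzymes ran from *Hmgcs1* to the ring demethylations of *Cyp51* and *Msmo1*, with uncalled enzymes between them, and none of the later ring enzymes was called. The median log2 fold change of the 18 enzymes was 0.89.

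*Hmgcs1*, which makes HMG-CoA, was at 1895, 2030.1, 2328, 2098 and 1443 normalized counts in hypHSC 1 to 5 and at 1054, 974, 811, 1099 and 918 in qHSC 1 to 5. The lowest hypHSC library lay above the highest qHSC library, and the log2 fold change of 1.0 (SE 0.17, adjusted p = 0.000610, limma) sat on the threshold. The call was lost when any of hypHSC 2, 3 or 4 or qHSC 3 or 5 was left out, with values of 0.94 to 1.11 over the 10 libraries left out in turn. *Idi1*, the isomerase that supplies dimethylallyl diphosphate, was at 1645, 1964, 1543, 2312 and 2420.0 in hypHSC and at 810.0, 676, 535, 474 and 641 in qHSC. It rose by 1.66 on the log2 scale (SE 0.20, adjusted p = 6.05e-05, limma), and its table row is shared with the pseudogene *Idi1-ps1*, with 23.7% of its read-length stretches found elsewhere among transcripts. *Fdps*, which makes farnesyl diphosphate at the branch point to prenylation, was at 1409, 1246, 1357, 1961 and 2179 in hypHSC and at 776, 654, 461, 573 and 468 in qHSC. Its 2 highest libraries were hypHSC 4 and 5, and the log2 fold change was 1.47 (SE 0.22, adjusted p = 0.000273, limma).

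The pair of genes at the squalene step showed the largest fold changes among the enzymes. *Fdft1*, squalene synthase, which commits farnesyl diphosphate to sterols, was at 877, 741, 848, 675 and 331 normalized counts in hypHSC and at 119, 79.2, 148, 76.2 and 70.4 in qHSC. The groups were far apart, with hypHSC 5 the lowest of its group, and the log2 fold change was 2.79 (SE 0.34, adjusted p = 5.50e-05, limma). By annotation 24.8% of the exonic bases of *Fdft1* overlap the cathepsin B gene *Ctsb*, and the libraries were not strand-specific, so reads in that overlap cannot be assigned to either gene. *Ctsb* was at 306851 to 1422228 in hypHSC and 51534 to 123399.5 in qHSC, a log2 fold change of 3.62, and hypHSC 5 was the lowest hypHSC library for it too. The part of *Ctsb* reads in the *Fdft1* value was not tested. *Sqle*, squalene epoxidase, a rate-limiting oxygen-dependent step, was at 1234, 1411, 2553, 1533 and 909 in hypHSC and at 253, 99.7, 155, 256 and 281 in qHSC. Its mean was 7.32-fold higher in hypHSC, with no overlap (log2 fold change 2.88, SE 0.35, adjusted p = 5.62e-05, limma). *Lss*, which closes the epoxide to lanosterol, did not follow, since hypHSC held 356, 394, 684, 223 and 21.2 and qHSC 420.0, 262, 187, 185 and 138. The groups overlapped entirely, and the log2 fold change was -0.03 with a 95% interval of -1.76 to 1.70.

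In the ring-trimming steps *Msmo1*, a sterol methyl oxidase that takes part in the removal of ring methyl groups, had the smallest adjusted p of all 36 genes. It was at 1974, 2616, 2522, 2133 and 2326 in hypHSC and at 639, 546, 458, 602 and 489 in qHSC. The hypHSC libraries differed little among themselves, and the log2 fold change was 2.08 (SE 0.16, adjusted p = 2.35e-06, limma). *Cyp51*, the lanosterol demethylase, was at 799, 951, 1165, 911 and 458 in hypHSC and at 194 to 310.4 (median 246) in qHSC. Every hypHSC library was above every qHSC library, by 1.77 on the log2 scale (SE 0.27, adjusted p = 0.000260, limma). Exons of *Akap9*, a kinase-anchoring gene that was not called (log2 fold change -0.35), and of unnamed genes overlap 28.3% of those of *Cyp51*.

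Of the 11 sterol enzymes that were not called, *Ebp*, the sterol isomerase, and *Sc5d*, the lathosterol oxidase, had an adjusted p below 0.05 with log2 fold changes of 0.78 (adjusted p = 0.0154, limma) and 0.48 (adjusted p = 0.0369, limma), short of the threshold of 1. *Mvd*, the mevalonate diphosphate decarboxylase, was at 350.4, 592, 394, 184 and 25.7 in hypHSC and at 120.4, 154, 89.8, 119.8 and 30.0 in qHSC. Libraries 1 to 4 of hypHSC lay above every qHSC library and hypHSC 5 below them all, so the log2 fold change of 1.2 had a 95% interval of -0.53 to 2.93. It was called higher by DESeq2 (1.59, adjusted p = 0.0338), and by limma without hypHSC 5 (1.94, adjusted p = 0.00727), but not by edgeR (1.62, adjusted p = 0.0645). *Mvk*, mevalonate kinase, was at 78.2, 121, 88.2, 66.1 and 7.56 in hypHSC and at 209, 209, 142, 93.3 and 105 in qHSC. Its log2 fold change of -1.40 had an interval of -2.87 to 0.07, and the hypHSC 5 value rests on 5 reads. *Dhcr7*, the final reductase, spanned 145 to 911 in hypHSC and 166 to 536 in qHSC, at 0.59 (-0.56 to 1.75), and *Hsd17b7*, the keto reductase, 27.2 to 264 and 146 to 209, at -0.52 (-1.73 to 0.68). *Tm7sf2*, a ring reductase, gave 1.0 (-0.00 to 1.99), and *Nsdhl*, the decarboxylating dehydrogenase, 0.36 (-0.13 to 0.85). *Pmvk*, phosphomevalonate kinase, at -0.01 (-0.46 to 0.44), and the acetoacetyl-CoA thiolase *Acat2*, at 0.10 (-0.42 to 0.63), had intervals that reach no further than 0.63 on the log2 scale in either direction.

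**Figure D2:**
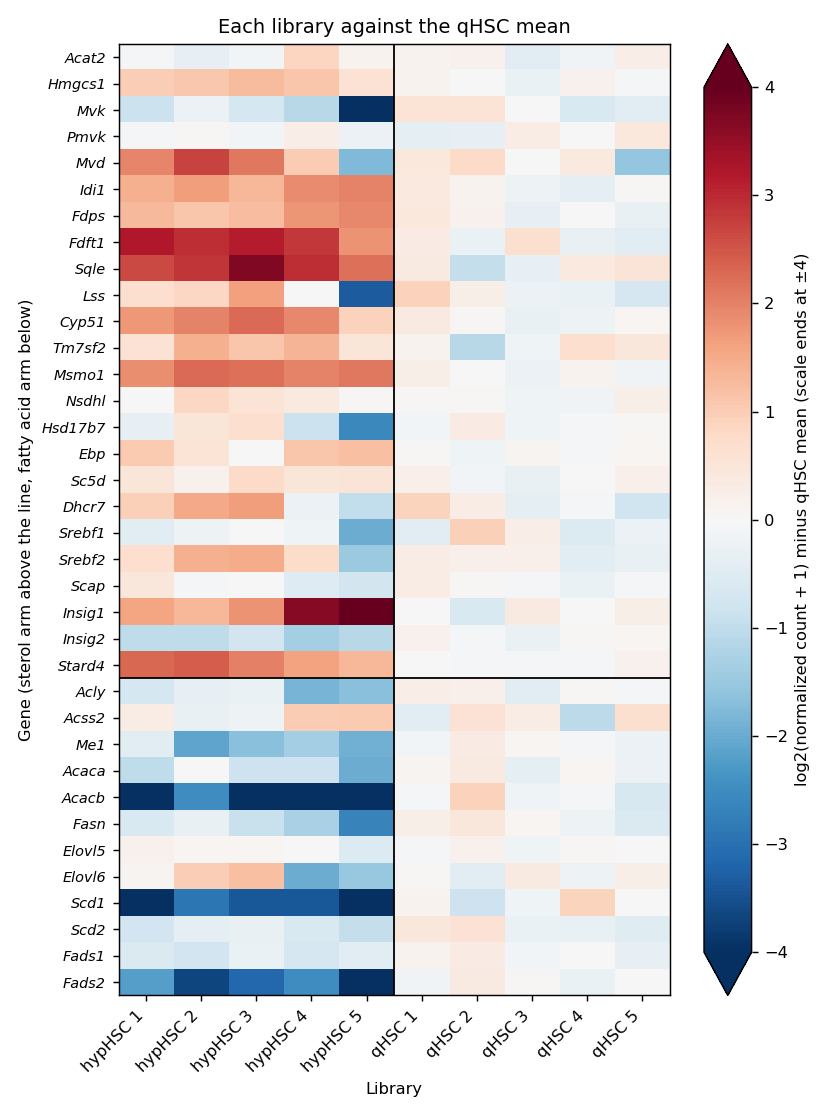
Each library (x axis) and gene (y axis) coloured by log2(normalized count + 1) minus the mean of the 5 qHSC libraries, red above and blue below, with colours ending at 4 on the log2 scale; the sterol arm is above the horizontal line and the fatty acid arm below it. hypHSC 5 stands out with low values for *Mvk* (7.56 normalized counts), *Lss* (21.2) and *Mvd* (25.7) beside high values for *Insig1* (18431).

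The hypHSC libraries were not alike across the sterol arm. hypHSC 5 was the lowest of its group for 11 of the 18 enzymes and for 15 of the 24 genes, and its median deviation from the group median over the enzymes was -0.55 on the log2 scale, against 0.00 to 0.17 for the other 4 libraries. The same library held the highest hepatocyte marker sum, the fewest genes with a read (14028) and the lowest *Actb* level (18213 normalized counts against 61939 to 296496). When hypHSC 4 and 5 were both left out, a choice made after the data were seen, 10 of 18 enzymes were called higher and none lower. Over all genes, 2786 of 14630 were called higher and 3130 lower in that fit, with a median log2 fold change of -0.07. *Mvd* then reached 2.25 (adjusted p = 0.00346, limma), *Dhcr7* 1.39 (adjusted p = 0.00838) and *Lss* 1.05 (adjusted p = 0.0359), while *Msmo1* stayed at 2.11 and *Sqle* at 3.07. In the same fit 7 of the uncalled genes of both arms changed sign, as given under the processing alternatives.

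The regulators split between the INSIG genes. *Insig1*, an endoplasmic reticulum anchor for SCAP that is itself an SREBP target, was at 1753, 1489, 2059, 7367 and 18431 normalized counts in hypHSC and at 595, 381, 762, 585 and 695 in qHSC. The groups did not overlap and the fold of the means was 10.3, but hypHSC 4 and 5 held most of it, so the SD of the hypHSC values (7247) exceeded their mean (6219.7). The log2 fold change was 2.67 (SE 0.62, adjusted p = 0.00459, limma), and 1.57 (adjusted p = 0.000303) without hypHSC 4 and 5. *Insig2*, the paralog with the same anchoring role and a separate transcriptional control, was at 2059, 2083, 2451, 1632 and 1949.6 in hypHSC and at 4714, 4088, 3526, 4337 and 4437 in qHSC. It fell by 1.06 on the log2 scale (SE 0.15, adjusted p = 0.000184, limma), with every hypHSC library below every qHSC library. That value is close to the threshold, and the call was lost without hypHSC 4 (-0.98), without hypHSC 4 and 5 (-0.94), without qHSC 1 and 4 (-0.99), under edgeR (-0.99), with TMM factors (-1.0) and with upper-quartile scaling (-0.95). Per length, as reads per kilobase of exon scaled to library size (FPKM), *Insig2* was above *Insig1* in every qHSC library (19.3 to 24.6 against 2.36 to 5.08). In hypHSC 1 to 5 *Insig1* was at 8.73, 7.48, 11.7, 33.7 and 79.0 FPKM and *Insig2* at 8.44, 8.61, 11.5, 6.15 and 6.87, so the pair was nearly level in the first 3 libraries and *Insig1* was higher in hypHSC 4 and 5.

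The transcription factor genes themselves were not called. *Srebf2*, which encodes the SREBP that favours sterol genes, was at 547, 934, 965, 572 and 124 in hypHSC and at 424, 402, 401, 261 and 279 in qHSC. Libraries 1 to 4 of hypHSC were above every qHSC library and hypHSC 5 was below them all, for a log2 fold change of 0.56 (-0.53 to 1.65) that reached 1.07 (adjusted p = 0.00460, limma) without hypHSC 5. *Srebf1*, which encodes the SREBP that favours fatty acid genes, was at 255, 296, 343, 305 and 84.7 in hypHSC and at 254, 653, 411, 232 and 288 in qHSC. The groups overlapped, at -0.55 (-1.49 to 0.39). *Scap*, the SREBP escort, was at -0.17 (-0.74 to 0.40), with 215 to 490.5 in hypHSC and 303 to 444 in qHSC. *Stard4*, a soluble carrier that moves cholesterol between membranes, was at 1143, 1254, 945, 719.7 and 588 in hypHSC and at 235, 227, 225, 222 and 261 in qHSC. The qHSC libraries were nearly level and all lay below hypHSC, and the log2 fold change was 1.93 (SE 0.24, adjusted p = 5.99e-05, limma).

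**Figure D3:**
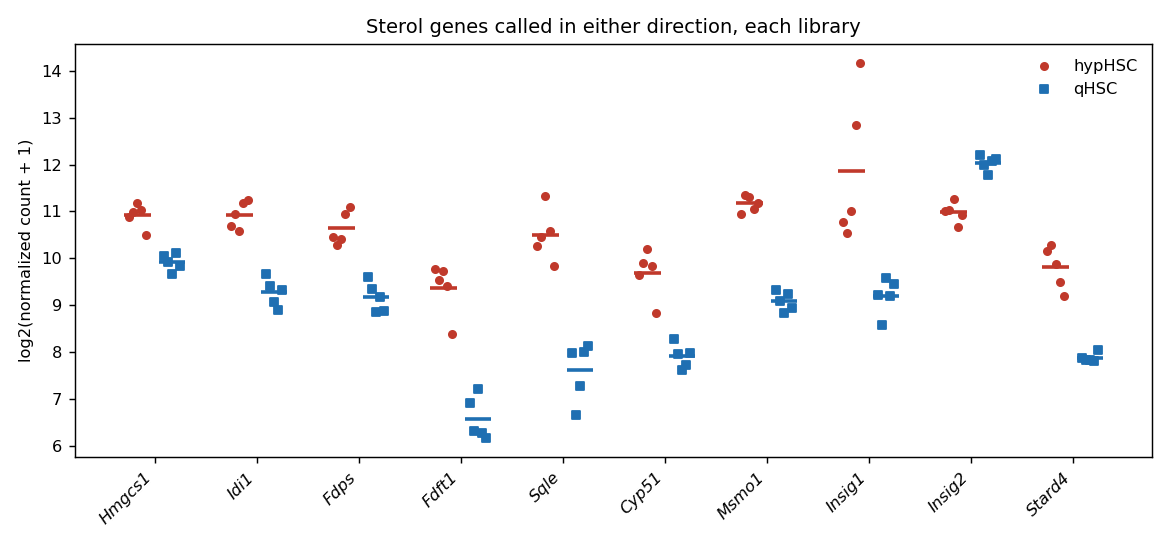
Log2(normalized count + 1) (y axis) of the 10 called sterol arm genes in each library, hypHSC as red circles and qHSC as blue squares, with a bar at each group mean (n = 5). Red and blue do not overlap for any of the 10 genes, *Insig2* is the only one with hypHSC below qHSC, and the hypHSC circles of *Insig1* spread from 1489 to 18431 normalized counts.

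The difference of the 15 called genes was also tested by an exact two-sided permutation test on mean log2 values. All but *Fasn* had a p of 0.00794, the smallest that the arrangements of 5 against 5 can give, and *Fasn* had an exact p of 0.0159. Groups that do not overlap always give this smallest p. For those genes the test restates the separation given above, in genes already picked by their calls, and adds no further support.

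In the fatty acid arm the calls were lower ones, and 2 of the 4 desaturase genes were among them, beside 21.7% of all genes tested called lower. *Scd1*, the stearoyl-CoA desaturase that makes oleate and palmitoleate, was at 18.9, 254, 178, 178 and 31.8 normalized counts in hypHSC and at 2054, 1066, 1682, 3469 and 1845 in qHSC. The highest hypHSC library was below the lowest qHSC library, and the mean was 15.3-fold higher in qHSC (log2 fold change -4.42, SE 0.69, adjusted p = 0.000327, limma). *Fads2*, which makes the first desaturation of dietary polyunsaturated fatty acids, was at 429.9, 155, 223, 356 and 33.3 in hypHSC and at 1809, 2565, 2046, 1672 and 1980.4 in qHSC. It fell by 3.48 on the log2 scale (SE 0.57, adjusted p = 0.000482, limma), and hypHSC 5 was the lowest library. Of the other genes of both families, *Scd2* and *Fads1*, which lie near *Scd1* and *Fads2* on chromosome 19, were not called. *Scd2*, a close relative of *Scd1*, spanned 546 to 846 in hypHSC and 752 to 1561 in qHSC, at -0.60 (-1.14 to -0.06). *Fads1*, which makes a later desaturation of the same chains, spanned 1120.1 to 1584 and 1517 to 2398, at -0.55 (adjusted p = 0.0202, limma). The further paralogs *Scd3*, *Scd4* and *Fads3*, which are not among the 36, were called lower. *Scd3* was at 1.05 to 32.1 in hypHSC and 25.6 to 67.6 in qHSC, at -2.55 (adjusted p = 0.0181, limma), a gene that passed the filter through qHSC and whose call was lost under edgeR and without either qHSC 1 and 4 or hypHSC 4 and 5. *Scd4* was at 4.54 to 40.4 and 46.0 to 87.3, at -1.93 (adjusted p = 0.0175, limma), a call lost without qHSC 1 and 4. *Fads3* was at 15.1 to 59.0 and 109.5 to 232, at -2.29 (adjusted p = 0.00122, limma).

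At the committed step, malonyl-CoA synthesis, 1 of the 2 carboxylase genes was called lower. *Acacb*, the mitochondrial acetyl-CoA carboxylase, had 0, 8, 2, 0 and 0 reads in hypHSC and 54, 113, 57, 57 and 43 in qHSC, which is 0 to 8.28 against 32.2 to 96.3 normalized counts. It was called lower at a log2 fold change of -4.77 (SE 0.74, adjusted p = 0.000305, limma), a value that ran from -5.43 to -3.12 when the pseudocount was 0.5 or 5 and is no measure of the true ratio at these depths. *Acaca*, the cytosolic carboxylase that feeds synthesis, was at 163, 325, 185, 185 and 81.7 in hypHSC and at 359, 425, 259, 349 and 282 in qHSC. Only hypHSC 2 reached into the qHSC range, and its log2 fold change of -0.94 (adjusted p = 0.0436, limma) fell short of the threshold, and 26.9% of its read-length stretches occur in other transcripts. *Fasn*, fatty acid synthase, was at 234, 295, 193, 147 and 56.0 in hypHSC and at 427, 491, 380.3, 313 and 241 in qHSC. It was called lower at -1.15 (SE 0.43, adjusted p = 0.0438, limma) with overlapping groups, and the call held for only 3 of the 10 libraries left out in turn and under neither DESeq2 (-1.0) nor edgeR (-0.96).

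Among the enzymes that supply acetyl-CoA and NADPH, *Me1*, cytosolic malic enzyme, was at 199, 61.1, 84.0, 105 and 69.6 in hypHSC and at 249.8, 342, 283, 258 and 227 in qHSC. All hypHSC libraries were below all qHSC libraries, with a log2 fold change of -1.50 (SE 0.35, adjusted p = 0.00414, limma). Its exons overlap those of *Rwdd2a*, which was not called (0.12), and of an unnamed gene over 35.5% of their bases. *Acly*, ATP citrate lyase, was at 3468, 4512, 4674, 1553 and 1759 in hypHSC and at 6748, 6545, 4157, 5863 and 5337 in qHSC. hypHSC 4 and 5 were the lowest, hypHSC 1 to 3 came near or into the qHSC range, and the log2 fold change of -0.97 (adjusted p = 0.0286, limma) missed the threshold. *Acss2*, the acetyl-CoA synthetase for acetate, had the only positive value of the arm, 0.37 (-0.62 to 1.37), with 68.3 to 177 in hypHSC and 40.2 to 132 in qHSC.

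The elongases did not separate the groups. *Elovl5*, which lengthens polyunsaturated chains, was at 1213 to 1969 in hypHSC and 1556 to 1969 in qHSC, with a log2 fold change of -0.04 (-0.41 to 0.32). *Elovl6*, which lengthens palmitate to stearate, was at 323, 600.5, 699, 75.5 and 104 in hypHSC and at 309.5, 219, 389.7, 261 and 355 in qHSC. The 2 lowest and the 2 highest of all 10 libraries were hypHSC, and the value of -0.24 (-1.53 to 1.06) became 0.77 without hypHSC 4 and 5.

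**Figure D4:**
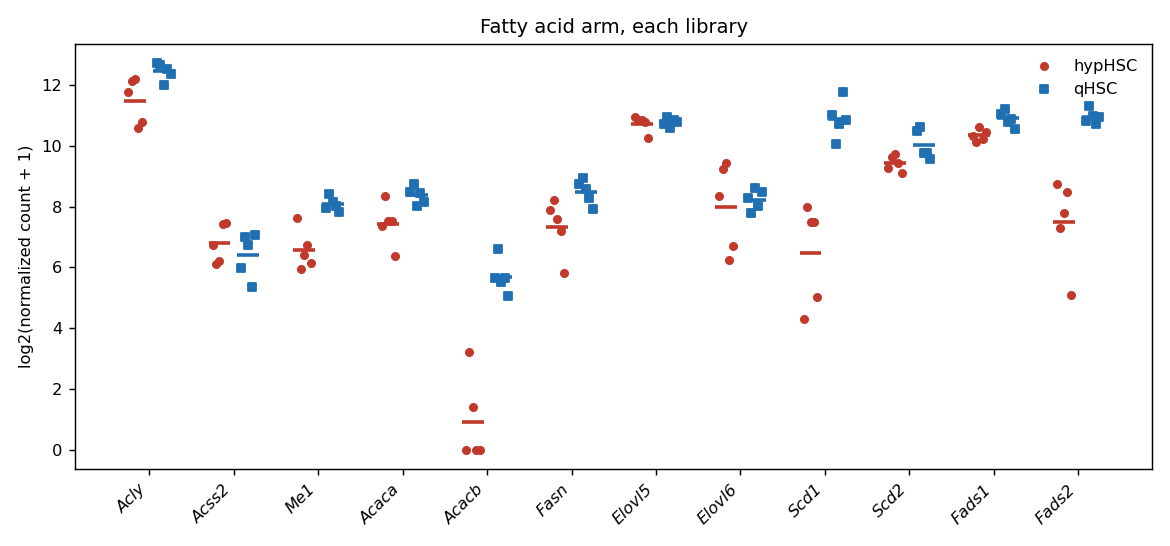
Log2(normalized count + 1) (y axis) of the 12 fatty acid arm genes in each library, hypHSC as red circles and qHSC as blue squares, with a bar at each group mean (n = 5). The groups are apart for *Me1*, *Acacb*, *Scd1* and *Fads2*, touch or overlap for the other 8 genes, and *Elovl6* spreads from 75.5 to 699 normalized counts within hypHSC.

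Levels between genes were compared per length, in FPKM scaled on the reads of symbol genes, with the mean and SD of 5 libraries. In qHSC the highest of the 36 was *Insig2* at 21.7 ± 1.99 FPKM, followed by *Acly* at 12.0 ± 2.15, *Fads1* at 10.6 ± 1.97, *Elovl5* at 9.47 ± 0.741, *Fads2* at 9.42 ± 1.62 and *Scd1* at 8.59 ± 3.82. All of these after *Insig2* are fatty acid arm genes, and the next gene was *Ebp* of the sterol arm at 8.49 ± 0.810. In hypHSC the order was headed by *Insig1* at 28.1 ± 30.4 FPKM, *Idi1* at 13.1 ± 1.42, *Ebp* at 11.6 ± 2.68, *Hmgcs1* at 9.02 ± 2.33, *Insig2* at 8.31 ± 2.05 and *Fdps* at 7.85 ± 1.29, all of the sterol arm. The next gene was *Elovl5* of the fatty acid arm at 7.38 ± 1.82. *Elovl5* lay above *Fdps* without hypHSC 5 (8.11 against 7.48) and without hypHSC 4 and 5 (8.50 against 6.99), so this split of the arms depends on where the order is cut. The first place of *Insig1* rested on hypHSC 4 and 5, since its mean was 15.4 without hypHSC 5 and 9.31 without both, the latter below *Idi1* (12.3), *Ebp* (10.5), *Hmgcs1* (10.2) and *Insig2* (9.51). By rank among 23035 genes with an exon length, *Scd1* was 2949th in qHSC and 10092nd in hypHSC, and *Sqle* 9551st in qHSC and 3912th in hypHSC.

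Upstream sequence was examined for letters that SREBP and its partner factors are known to bind, in the 250 bases before each canonical transcript start (GENCODE, GRCm39). The sterol regulatory element was searched as TCACNCCAC, the NF-Y box as CCAAT and the Sp1 box as GGGCGG, each on both strands, and the letters of the 3 searches do not contain one another. The element was found in 1 of 24 sterol arm windows (*Hmgcs1*) and 3 of 12 fatty acid arm windows (*Acss2*, *Acaca* and *Fasn*), beside 1.12% of 21770 protein-coding genes. CCAAT was found in 16 of 24 and 3 of 12 windows, beside 36.5%, and GGGCGG in 16 of 24 and 4 of 12, beside 36.3%. Printed below are 6 of the called genes whose window holds CCAAT in its longest stretch without an annotated exon, 5′ to 3′ toward the gene, with CCAAT, or ATTGG for the other strand, in capitals. They include genes called higher (*Hmgcs1*, *Sqle*, *Msmo1*, *Insig1*) and genes called lower (*Scd1*, *Fads2*). All were picked for holding the box, so their carrying it is no result. Among all called genes, the windows without CCAAT were those of *Cyp51*, called higher, and of *Insig2*, *Me1* and *Acacb*, called lower. The stretches are chr13:120151785-120151914 (plus strand) for *Hmgcs1*, chr15:59186632-59186868 (plus) for *Sqle*, chr8:65186831-65187076 (minus) for *Msmo1*, chr5:28276124-28276314 (plus) for *Insig1*, chr19:44396341-44396590 (minus) for *Scd1* and chr19:10079204-10079453 (minus) for *Fads2*.
Hmgcs1: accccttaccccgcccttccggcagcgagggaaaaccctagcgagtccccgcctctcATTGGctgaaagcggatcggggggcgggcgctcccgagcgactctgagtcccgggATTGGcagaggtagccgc
Sqle: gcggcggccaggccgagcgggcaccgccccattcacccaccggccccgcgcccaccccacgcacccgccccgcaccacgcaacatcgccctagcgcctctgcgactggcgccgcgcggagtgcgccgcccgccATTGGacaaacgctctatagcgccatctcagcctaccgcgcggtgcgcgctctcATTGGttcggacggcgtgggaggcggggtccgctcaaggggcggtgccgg
Msmo1: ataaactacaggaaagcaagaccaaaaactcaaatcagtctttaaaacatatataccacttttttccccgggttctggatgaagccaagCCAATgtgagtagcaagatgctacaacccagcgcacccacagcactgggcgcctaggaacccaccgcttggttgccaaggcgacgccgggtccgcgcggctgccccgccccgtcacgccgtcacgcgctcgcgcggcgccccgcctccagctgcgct
Insig1: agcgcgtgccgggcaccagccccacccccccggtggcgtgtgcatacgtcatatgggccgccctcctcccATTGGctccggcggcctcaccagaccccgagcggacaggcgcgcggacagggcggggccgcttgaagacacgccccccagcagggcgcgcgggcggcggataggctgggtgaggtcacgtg
Scd1: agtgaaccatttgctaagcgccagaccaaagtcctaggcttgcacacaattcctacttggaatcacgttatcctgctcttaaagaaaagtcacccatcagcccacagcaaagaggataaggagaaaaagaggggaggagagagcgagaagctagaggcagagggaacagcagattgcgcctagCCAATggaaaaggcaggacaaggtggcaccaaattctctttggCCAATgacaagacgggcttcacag
Fads2: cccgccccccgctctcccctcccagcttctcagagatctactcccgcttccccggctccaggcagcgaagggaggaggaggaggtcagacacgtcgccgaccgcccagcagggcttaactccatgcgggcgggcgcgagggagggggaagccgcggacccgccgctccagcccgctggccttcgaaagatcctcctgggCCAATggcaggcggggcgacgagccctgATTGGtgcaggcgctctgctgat

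*Hmgcs1*, *Sqle*, *Scd1* and *Fads2* carry 2 of these boxes in their stretches, and *Msmo1* and *Insig1* 1 each. A match of letters is a description of the window and was not tested as a binding site.

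The other genes of these pathways came from 3 lists. Of 16 genes that handle SREBP or respond to sterols, 2 were called higher and 1 lower, with a median of -0.13, so that 18.8% were called beside 39.5% of all genes tested. *Mbtps1*, the first protease that cuts SREBP, was at 1318, 1373, 1265, 451 and 215 in hypHSC and at 3577, 3932, 2596, 2514 and 2604 in qHSC, at -2.01 (SE 0.48, adjusted p = 0.00525, limma). Every hypHSC library was below every qHSC library, with 4 and 5 the lowest. *Trib1*, a pseudokinase of lipid control, was at 290.2 to 755 in hypHSC and 114 to 178 in qHSC, at 1.83 (SE 0.30, adjusted p = 0.000489, limma). Of 16 genes of the prenyl branch, which takes farnesyl diphosphate away from sterols, 1 was higher and 1 lower (12.5% called), with a median of -0.44. *Ggps1*, which makes geranylgeranyl diphosphate, was at 1677 to 3400.1 in hypHSC and 5989 to 8422 in qHSC, at -1.79 (SE 0.21, adjusted p = 4.13e-05, limma), while *Nus1*, a subunit of the dolichol-forming prenyltransferase, was at 1686 to 5029 and 817 to 1014, at 1.52 (SE 0.26, adjusted p = 0.000659, limma).

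Of 35 partner genes of fatty acid synthesis 33 passed the filter, and 6 were called higher and 9 lower (45.5% called, beside 39.5% of all genes), with a median of -0.27. Among the lower ones *Elovl4* and *Scd3* passed the filter through the qHSC libraries, so their calls were partly fixed by it. *Elovl3*, an elongase of saturated chains, was at 24.3, 68.3, 60.7, 68.2 and 0 in hypHSC and at 1192, 281, 1119, 3093 and 1547 in qHSC, at -5.57 (SE 1.12, adjusted p = 0.00178, limma). *Thrsp*, a lipogenic nuclear protein, was at 36.4, 131, 0, 72.4 and 49.9 in hypHSC and at 2089, 2154, 1369, 685 and 779 in qHSC, at -5.48 (SE 1.11, adjusted p = 0.00186, limma). Neither gene had overlapping groups. Higher in hypHSC were *Acss1*, the mitochondrial acetyl-CoA synthetase, at 166 to 302 against 3.94 to 32.6 (4.08, SE 0.55, adjusted p = 0.000112, limma), and *Hacd4*, a dehydratase of the elongation cycle, at 1676 to 2315 against 63.0 to 286 (3.85, SE 0.38, adjusted p = 1.31e-05, limma). These 4 genes kept their calls and directions when libraries were scaled on the reference genes, whereas the calls of *Trib1* (0.90) and *Nus1* (0.58) were lost there.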

How the data were processed

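RNA from 5 hypHSC and 5 qHSC preparations was sequenced as paired 59-base reads from libraries that were not strand-specific. According to the submitters' processing notes and the study's methods, the authors mapped reads with STAR to mm39, counted them with featureCounts (Subread 1.5.0) on FAST DB genes and deposited 1 table of normalized counts, that is counts divided by a DESeq2 size factor (a signal scale). Whole reads were recovered for 100.0% of the deposited values within a tolerance of 0.1 reads beyond rounding, so 3 reads equal 2.25 to 4.54 normalized counts by library. Columns of the authors' own comparisons were not used.

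Symbol genes that reached 10 normalized counts in 5 or more libraries were tested on log2(normalized count + 1) with limma 3.58.1 (R 4.3.3, empirical Bayes with a trend) and Benjamini-Hochberg correction over 14630 genes. This test was run on simulated counts in which all genes and both groups shared the same spread and few genes changed. The data differ from that setting, so the check does not cover unequal spread or many changed genes. Fold changes of low genes depend on this scale, in either direction. *Scd3* was at -2.55 by limma and -1.99 by DESeq2, whereas *Krt19* was at 6.16 and 6.89. Alternatives were DESeq2 1.42.0 and edgeR 4.0.16 on the recovered reads (5822 and 5336 genes called), other scalings, pseudocounts and filters, the replicate number as a block, and libraries left out. Exon lengths, overlaps and upstream sequence came from GENCODE vM39 on GRCm39.

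The members and lists were chosen with earlier results of these data known. All members are named, as are, of each other pathway list, up to 4 called genes whose groups do not overlap, by size of change, and the 2 most abundant genes of each marker list. *Scd3*, *Scd4*, *Fads3*, *Elovl4*, *Krt19*, *Epcam*, *Ctsb*, *Akap9*, *Rwdd2a*, *Hprt*, *Pgk1* and *Actb* were added after their values were seen.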

Additional observations from a re-analysis of the deposited data

Results flagged for a closer look

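In each group of 5 libraries the highest and lowest values of all 36 genes were compared with the rest by Dixon's ratio of gap to range, whose critical value is 0.71. Of 72 groups 3 were marked, and chance marks about 1 in 20. *Acacb* was at 8.28 normalized counts in hypHSC 2, where the next highest hypHSC library was at 1.66 (ratio 0.800), and at 96.3 in qHSC 2, where the next highest qHSC library was at 48.9 (ratio 0.740). *Elovl5* was at 1213 in hypHSC 5, where the next lowest hypHSC library was at 1757 (ratio 0.720).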

How the results depend on the processing

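Of the 15 called genes none changed direction under 25 alternatives, and 6 kept their call in every alternative that gave a value (*Fdft1*, *Sqle*, *Msmo1*, *Me1*, *Scd1*, *Fads2*). *Acacb* kept its call in the 24 it entered, but that call is partly fixed by the filter, so its being kept adds no support. The 10 called sterol genes became 8 to 12, and the 5 fatty acid genes 4 to 7, as each library was left out in turn. Scaling on *Hprt*, *Pgk1* and *Actb* changed most: 9 fatty acid arm genes were called, all lower, and the 10 sterol arm calls (9 higher, 1 lower) became 8 (3 higher, 5 lower). It also gave 11 calls in the list of SREBP handling, 11 in the prenyl branch and 23 among fatty acid partners, and turned *Nsdhl* (-0.58), *Ebp* (-0.16), *Sc5d* (-0.46), *Dhcr7* (-0.35), *Acat2* (-0.83), *Srebf2* (-0.38) and *Acss2* (-0.55). Over all genes it gave 1472 higher and 6990 lower calls, and scaling to the same total 2022 and 4225, against 2602 and 3177. The same total also gave 6 calls each in the SREBP handling and prenyl lists and *Acat2* at -0.25. At 12 weeks of diet alone both lists again gave 6. Using all entries gave 9291 called, from 24320 tested. As libraries were left out in turn the SREBP handling list gave 3 to 5 calls and the prenyl branch 2 to 5. The cause of these changes was not tested.

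The remaining sign changes concern genes not called with all 10 libraries, of which *Lss* was called higher without hypHSC 4 and 5. *Pmvk* was at 0.10 (upper quartile), 0.05 (TMM) and 0.02 (edgeR), *Elovl5* at 0.07, 0.02 and 0.03, and *Lss* at 0.08, 0.02 and 0.55, with 0.50 under DESeq2 and 0.00 with a pseudocount of 5. *Elovl6* was at 0.23 under DESeq2 and 0.28 under edgeR. Without qHSC 1 and 4, *Lss* was at 0.19 and *Acss2* at -0.13. Without hypHSC 4 and 5, *Lss* was at 1.05, *Hsd17b7* at 0.27 (-0.52 with all libraries), *Acat2* at -0.17, *Scap* at 0.14, *Acss2* at -0.07, *Elovl5* at 0.11 and *Elovl6* at 0.77. Both pairs were chosen after the data were seen. The ranges over single libraries left out were -0.10 to 0.10 for *Pmvk*, -0.45 to 0.79 for *Lss*, -0.09 to 0.21 for *Acat2*, -0.09 to 0.08 for *Elovl5* and -0.60 to 0.20 for *Elovl6*.

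The replicate number as a block left the calls of all 36 genes as they were and gave 5786 called genes over all, but 4 in the prenyl branch. Same-numbered libraries deviated together weakly (r = 0.01 to 0.13), and only library 5 matched its own number best, so the numbers do not pair the samples. Depth limits *Acacb* in hypHSC, where 4 of 5 libraries held 3 reads or fewer.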
